A study of Mus musculus with 9 samples.

Results

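The genes of sterol and fatty acid synthesis that answer to the sterol regulatory element-binding proteins (SREBPs) were followed in the medial prefrontal cortex of DBA2/J mice, an inbred strain. The list holds 37 genes out of 36172 features in the count table. It was chosen by pathway name with earlier results of these data known, so the values of its members are a description and not independent evidence of a direction. By role, 19 genes encode enzymes of the sterol branch, 5 encode the SREBPs and the proteins that control them, 3 move sterols within the cell, 8 encode enzymes of the fatty acid branch and 2 export sterol from the cell. All 37 were among the 15144 genes that passed the filter on low counts.

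RNA sequencing compared 3 groups of 3 libraries of frozen tissue, all from the same strain and none with a genetic change named in the labels. Non-stressed mice (NS) were the baseline and received saline. The other mice went through 5 days of social defeat, in which a mouse is exposed to an aggressor. They belong to a type that the submitters call SA:ANH, a term not explained in the sources used here, and received either vehicle (SA:ANH-vehicle) or an inhibitor of the X-linked histone demethylase KDM5C (SA:ANH-KDM5Ci). Sample titles and treatment labels differ on the control, which is a vehicle in the former and saline in the latter. The dose, the timing and the chemical name of the inhibitor, and the age of the mice, are not in the labels. Whether each sample is another mouse is not stated, and if not, p-values reflect technical spread alone. No group has non-stressed mice with the inhibitor. In bulk tissue, fewer cells of a type and less RNA per cell cannot be told apart, and this applies to each difference below.

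Cells make cholesterol from acetyl-CoA through mevalonate and squalene, and adult brain makes nearly all of its own because lipoprotein cholesterol does not cross the blood-brain barrier. When membranes of the endoplasmic reticulum hold little sterol, SCAP escorts the SREBPs to the Golgi, where proteases release a transcription factor that switches on the sterol genes. When sterol is plentiful, INSIG proteins hold SCAP back. SREBP-2, encoded by Srebf2, acts mainly on sterol genes, while a form of SREBP-1, encoded by Srebf1, acts mainly on fatty acid genes. Oxysterols made from surplus cholesterol activate the liver X receptors (LXRs), which raise the export pumps ABCA1 and ABCG1 and Srebf1 itself.

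Libraries held between 29845097 and 42196472 counts, and trimmed-mean (TMM) scaling factors lay between 0.987 and 1.01. Levels are given as CPM, which are counts scaled to a common library size. Differences are log2 fold changes from edgeR's quasi-likelihood test with their standard errors (SE), and a gene was called when its p-value, adjusted by Benjamini-Hochberg over all 15144 genes, was below 0.05. Excitatory neuron markers summed to between 7127.6 and 7759.2 CPM in the 9 libraries, and oligodendrocyte, astrocyte and microglia markers were all present. Neuron markers of the neighbouring striatum were uneven, at 174.8 to 307.6 CPM across NS, 195.8 to 259.8 CPM across SA:ANH-vehicle and 224.8 to 550.0 CPM in SA:ANH-KDM5Ci, with the highest sum in SA:ANH-KDM5Ci replicate 1. The median log2 difference of these 8 markers in SA:ANH-KDM5Ci was 0.8 against NS and 0.88 against SA:ANH-vehicle. It was -0.05 for SA:ANH-vehicle against NS, and edgeR called 0 of the 8 in any comparison.

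To compare levels between genes, CPM was divided by the length of each gene's merged exons. In NS tissue, the desaturase gene Scd2 had the highest level on this scale, at 252 ± 12 CPM per kb (SD, n = 3). Hmgcs1, which encodes the cytosolic synthase that starts the mevalonate branch, followed at 143.4 ± 2.07 CPM per kb. Both stood well above Fads1, a desaturase of polyunsaturated fatty acids, at 71.1 ± 0.806 CPM per kb. Srebf2 (52.7 ± 1.13 CPM per kb) and the farnesyl diphosphate synthase gene Fdps (51.9 ± 3.49 CPM per kb) were next and did not differ beyond their spread. Srebf1 was lower, at 12.2 ± 0.779 CPM per kb. The lowest members were the lanosterol synthase gene Lss (4.84 ± 0.0831 CPM per kb) and Abca1 (4.43 ± 0.346 CPM per kb). The plot of levels per kilobase gives the order of all 37.

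**Figure D1:**
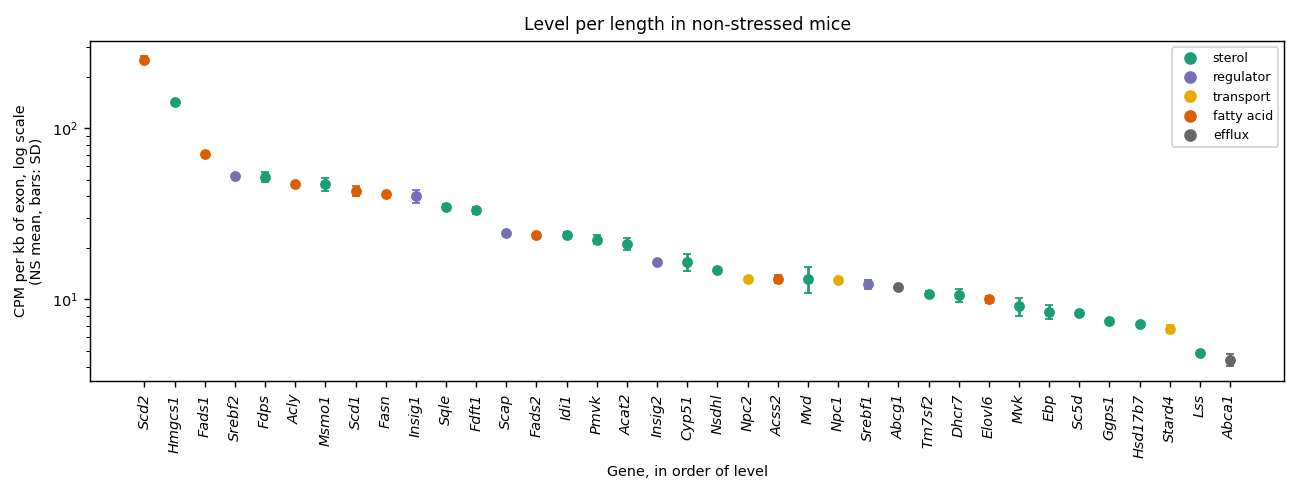
Level of each of the 37 genes per kilobase of merged exons in the 3 NS libraries (log axis, CPM per kb), coloured by role; points are means, bars are SD (n = 3) and genes are ordered by their mean. Scd2 and Hmgcs1 lead at 252 and 143.4 CPM per kb, and Lss and Abca1 come last at 4.84 and 4.43 CPM per kb.

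Most sterol branch genes had lower levels in both stressed groups than in NS. Against NS, 11 of its 19 genes fell in SA:ANH-KDM5Ci, by 0.24 to 0.58 on the log2 scale, and none rose. In that comparison 2.11% of all genes tested were called lower and 1.86% higher. In SA:ANH-vehicle, 15 of the 19 had all 3 libraries below all 3 NS libraries, against 6.81% of all genes, but none passed the test. Ggps1 and Ebp were the exceptions to the direction, with small positive differences in both comparisons. The median log2 difference of the branch was -0.26 for SA:ANH-vehicle against NS and -0.37 for SA:ANH-KDM5Ci against NS, while the median over all genes tested was 0.00 in both. Both comparisons use the same NS libraries, so the second does not repeat the first independently. For 13 of the 19 genes all 6 stressed libraries lay below all 3 NS libraries, an arrangement found in 2.94% of all genes tested.

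Over all 37 genes, edgeR called 14 lower and 0 higher in SA:ANH-KDM5Ci than in NS, where 2.11% of all genes tested were called lower and 1.86% higher. Members with unadjusted p below 0.05 numbered 23, against 2796 of the 15144 genes tested. DESeq2 called 17 members, adding the fatty acid synthase gene Fasn and Lss as lower and Abca1 as higher. With limma-voom 14 were called. Over all genes DESeq2 called 831 and limma-voom 560. The 3 libraries of SA:ANH-KDM5Ci lay below all 3 of NS for 20 members and above them for 1, against 12% and 11.5% of all genes. The count of calls rests partly on single libraries. It was 7 without SA:ANH-KDM5Ci replicate 1 and 9 without NS replicate 2.

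For SA:ANH-vehicle against NS, edgeR called 0 of the 37, in a comparison where only 0.0132% of all genes were called higher and 0% lower. Unadjusted p was below 0.05 for 23 of the 37 and for 1244 of the 15144 genes tested. DESeq2 called 5 members lower (Hmgcs1, Insig1, Nsdhl, Sqle and Srebf2), where it called 38 of all genes lower and 43 higher. With limma-voom, 0 of the 37 and 3 of all genes were called. The groups did not overlap for 22 members that were lower and 2 that were higher in SA:ANH-vehicle, against 6.81% and 8.29% of all genes. Because these genes were chosen with such results known, nothing further is read from the counts.

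**Figure D2:**
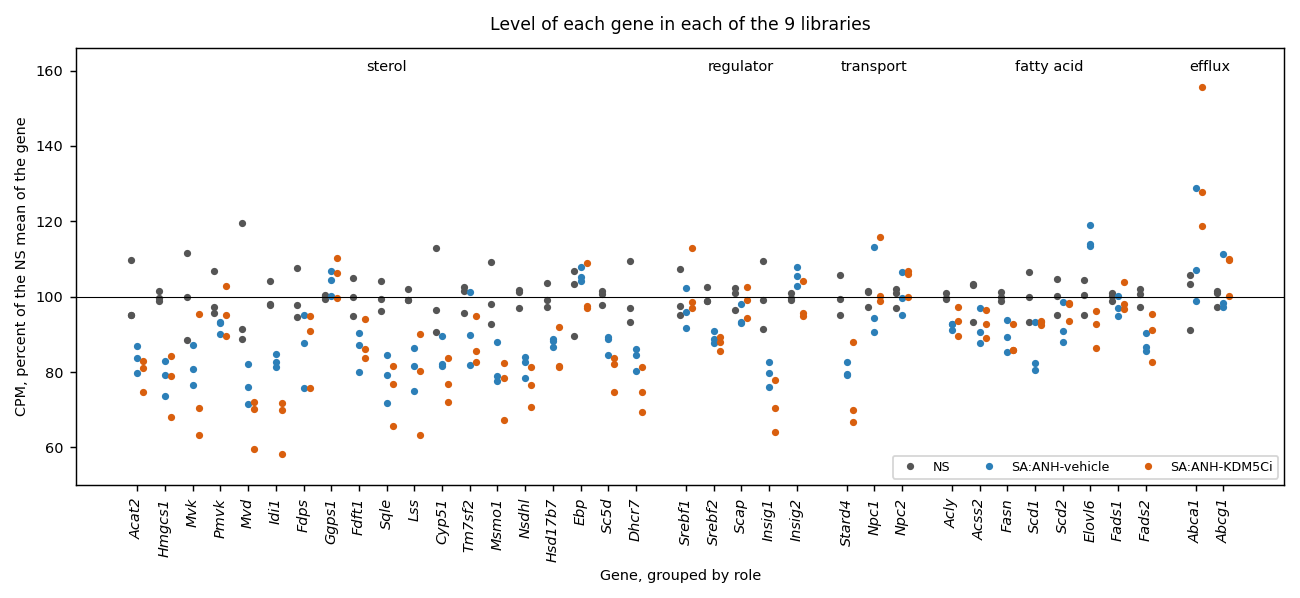
Level of each gene in each of the 9 libraries as a percent of its NS mean (y axis, which starts above 0), with genes grouped by role; points are libraries. For 13 of the 19 sterol genes all 6 stressed libraries lie below all 3 NS libraries, while Elovl6 and Abca1 have stressed libraries above NS.

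Proximal promoters are shown for 4 of the 11 sterol genes called against NS, as examples chosen after their values were seen, and for Elovl6, a fatty acid gene with another pattern, because sterol genes are known for pairing an SREBP site with a CCAAT box, which binds the factor NF-Y. Each is the 180 bases just upstream of the RefSeq transcription start on GRCm38.p6, 5′ to 3′ along the gene. The reference is another strain, so bases that differ in DBA2/J mice would not be seen. Capitals mark CCAAT, or ATTGG where the box lies on the opposite strand, and in Hmgcs1 also the SREBP site. The windows are chr13:119690171-119690350 (plus strand) for Hmgcs1, chr13:8885426-8885605 (plus) for Idi1, chr8:64733579-64733758 (minus) for Msmo1, chrX:72918341-72918520 (plus) for Nsdhl and chr3:129532206-129532385 (plus) for Elovl6.
Hmgcs1: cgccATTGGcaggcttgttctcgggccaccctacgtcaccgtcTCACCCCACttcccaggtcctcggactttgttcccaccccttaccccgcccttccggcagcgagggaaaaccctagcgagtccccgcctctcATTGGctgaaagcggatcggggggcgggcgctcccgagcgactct
Idi1: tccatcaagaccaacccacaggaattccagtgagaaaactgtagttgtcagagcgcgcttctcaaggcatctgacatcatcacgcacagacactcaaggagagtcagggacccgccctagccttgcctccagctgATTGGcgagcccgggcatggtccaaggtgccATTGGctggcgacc
Msmo1: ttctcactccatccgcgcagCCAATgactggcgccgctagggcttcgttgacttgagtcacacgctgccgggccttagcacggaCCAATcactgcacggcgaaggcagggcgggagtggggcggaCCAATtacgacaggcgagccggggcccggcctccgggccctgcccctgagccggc
Nsdhl: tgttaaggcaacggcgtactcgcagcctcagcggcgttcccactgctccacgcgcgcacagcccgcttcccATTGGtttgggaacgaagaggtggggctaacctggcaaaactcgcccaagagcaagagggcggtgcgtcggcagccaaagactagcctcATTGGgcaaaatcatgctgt
Elovl6: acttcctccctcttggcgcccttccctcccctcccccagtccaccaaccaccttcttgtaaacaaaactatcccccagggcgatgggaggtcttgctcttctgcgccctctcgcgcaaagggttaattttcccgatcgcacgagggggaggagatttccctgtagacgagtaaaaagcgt

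RefSeq promoters of 250 bases before the start were found for 28 of the 37 genes and were searched on both strands for 3 motifs, with overlaps between motifs allowed. CCAAT was present in 15 of 16 sterol genes (93.8%), in 4 of 5 regulators and in 2 of 5 fatty acid genes (40.0%), against 40.3% of the 11898 tested genes with a promoter. Among sterol genes with a sequence, Acat2 alone had no CCAAT. The GC box GGGCGG, a site of the factor SP1, was present in 14 of 16 sterol genes (87.5%), against 61.3% of tested genes. The strict SREBP site TCACNCCAC was found in 1 member, Hmgcs1, as TCACCCCAC and apart from its CCAAT boxes, against 1.22% of tested genes. A match of letters is a description and not evidence that a factor was bound.

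At the head of the pathway, Acat2 (chr17:12943042-12960725) encodes the cytosolic thiolase that joins 2 molecules of acetyl-CoA. Its level was 57.8, 50.1 and 50.1 CPM across NS, 44.0, 42.1 and 45.7 CPM across SA:ANH-vehicle and 39.4, 43.6 and 42.7 CPM in SA:ANH-KDM5Ci. All 6 stressed libraries were below NS, and the 2 stressed groups overlapped. Against NS it fell in SA:ANH-KDM5Ci by 0.33 (SE 0.07, adjusted p = 0.0148), and the difference of -0.26 in SA:ANH-vehicle was not called (adjusted p = 0.269).

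Hmgcs1 (chr13:119690351-119708260), whose promoter holds the SREBP site, was at 493, 497 and 507 CPM in NS. It was at 368, 395 and 415 CPM across SA:ANH-vehicle and 340, 421 and 394 CPM in SA:ANH-KDM5Ci. The NS values lay close together and well above every stressed library. The means were 499 ± 7.15 CPM, 393 ± 23.2 CPM and 385 ± 41.2 CPM (SD, n = 3). Hmgcs1 fell by 22.9% in SA:ANH-KDM5Ci against NS (log2 -0.37, SE 0.07, adjusted p = 0.00868). SA:ANH-vehicle differed from NS by a like -0.35 (SE 0.07), which was not called in edgeR (adjusted p = 0.122).

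The mevalonate steps that follow were uneven. Mvd, which encodes the decarboxylase that makes isopentenyl diphosphate, was at 27.6, 21.1 and 20.5 CPM across NS, 17.6, 16.5 and 18.9 CPM across SA:ANH-vehicle and 13.8, 16.2 and 16.6 CPM in SA:ANH-KDM5Ci. It fell by 0.57 in SA:ANH-KDM5Ci against NS (SE 0.11, adjusted p = 0.014), with NS replicate 1 high and no overlap with either stressed group. The mevalonate kinase gene Mvk had a log2 difference of -0.38 (SE 0.14) in the same comparison and was not called (adjusted p = 0.155), and SA:ANH-KDM5Ci replicate 3, at 17.25 CPM, lay among the NS values of 16.0 to 20.2 CPM. Pmvk, the gene of the next kinase, differed by -0.06 (adjusted p = 0.67).

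Idi1 (chr13:8885606-8892396) had the lowest p of all members in SA:ANH-KDM5Ci against NS and was also called between the stressed groups. It encodes the isomerase that turns isopentenyl diphosphate into the primer of chain growth. Levels were 74.9, 70.4 and 70.2 CPM across NS, 59.4, 58.5 and 60.8 CPM across SA:ANH-vehicle and 41.9, 51.5 and 50.2 CPM in SA:ANH-KDM5Ci. The 3 groups formed 3 separate steps with no overlap. It fell by 33.3% in SA:ANH-KDM5Ci against NS (log2 -0.58, SE 0.07, adjusted p = 0.000327). It fell by 19.6% against SA:ANH-vehicle (log2 -0.31, SE 0.07, adjusted p = 0.0292). The difference of SA:ANH-vehicle from NS was -0.27 (SE 0.07, adjusted p = 0.267). The call between the stressed groups was lost without SA:ANH-KDM5Ci replicate 1, any one SA:ANH-vehicle library or NS replicate 2, and with only the 2 groups in the fit, at adjusted p of up to 0.0928.

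At the branch point to isoprenoids, the geranylgeranyl diphosphate synthase gene Ggps1, which leads away from sterols, was not lower. It ranged from 32.45 to 32.7 CPM in NS and from 32.5 to 36.0 CPM in the stressed libraries, with log2 differences from NS of 0.05 and 0.08. Fdps overlapped between all groups and differed from NS by -0.21 in SA:ANH-vehicle and -0.20 in SA:ANH-KDM5Ci (adjusted p = 0.589 and 0.299).

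The step that commits farnesyl units to sterols is squalene synthase, encoded by Fdft1. It was lower than in NS in all 6 stressed libraries, at 98.2 to 115.4 CPM against 116.5 to 129 CPM, with a log2 difference of -0.18 in SA:ANH-KDM5Ci that was not called (adjusted p = 0.125). Sqle, which encodes the oxygen-requiring squalene epoxidase, was at 99.5, 91.9 and 95.01 CPM across NS, 68.6, 75.8 and 80.7 CPM across SA:ANH-vehicle and 62.8, 77.9 and 73.3 CPM in SA:ANH-KDM5Ci. Sqle fell by 25.3% in SA:ANH-KDM5Ci against NS (log2 -0.42, SE 0.08, adjusted p = 0.00895), and no stressed library came above 80.7 CPM. In SA:ANH-vehicle the difference was -0.35 (SE 0.08, adjusted p = 0.175). Lss was at 22.4 to 23.0 CPM across NS and 14.3 to 20.4 CPM in the stressed libraries, and its difference of -0.37 in SA:ANH-KDM5Ci missed the threshold (SE 0.11, adjusted p = 0.076).

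Of the enzymes that trim lanosterol, 4 fell in SA:ANH-KDM5Ci against NS. Cyp51, the demethylase gene, was at 72.95, 62.4 and 58.6 CPM across NS, 53.1, 52.7 and 58.0 CPM across SA:ANH-vehicle and 46.6, 54.1 and 49.8 CPM in SA:ANH-KDM5Ci. The highest stressed library came close to the lowest NS library, and the fall was 0.37 (SE 0.08, adjusted p = 0.0222). Msmo1, which encodes the methylsterol monooxygenase, was at 105, 94.2 and 89.35 CPM across NS, 74.6, 75.9 and 84.7 CPM across SA:ANH-vehicle and 64.6, 75.4 and 79.2 CPM in SA:ANH-KDM5Ci. It fell by 0.40 (SE 0.08, adjusted p = 0.0167), and its stressed groups overlapped.

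Nsdhl (chrX:72918521-72958528), an X-linked gene whose product works in the same demethylation complex, was below NS in every stressed library. Its NS libraries read 31.1, 32.6 and 32.5 CPM, those of SA:ANH-vehicle 25.2, 26.5 and 26.9 CPM, and those of SA:ANH-KDM5Ci 22.7, 26.1 and 24.6 CPM. The NS mean of 32.1 ± 0.844 CPM compared with 26.2 ± 0.907 CPM and 24.5 ± 1.72 CPM (SD, n = 3). Nsdhl fell by 23.8% in SA:ANH-KDM5Ci (log2 -0.39, SE 0.06, adjusted p = 0.00338), and SA:ANH-vehicle differed from NS by -0.29 (SE 0.06, adjusted p = 0.158). Its partner reductase gene Hsd17b7 was at 37.2, 34.95 and 35.6 CPM across NS, 31.85, 31.1 and 31.7 CPM across SA:ANH-vehicle and 29.3, 33.0 and 29.2 CPM in SA:ANH-KDM5Ci. Hsd17b7 fell by 0.24 (SE 0.06, adjusted p = 0.0449), the call nearest to the threshold, and lost it in 9 of 18 alternative settings. Tm7sf2, which encodes a sterol reductase, differed by -0.19 and was not called (adjusted p = 0.263).

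The last steps gave 2 falls, while Ebp was not called. Sc5d, the desaturase gene that makes 7-dehydrocholesterol, was at 40.8, 40.5 and 39.3 CPM across NS, 34.0, 35.9 and 35.7 CPM across SA:ANH-vehicle and 33.0, 33.7 and 30.05 CPM in SA:ANH-KDM5Ci. The 3 groups did not overlap, and Sc5d fell by 0.32 in SA:ANH-KDM5Ci against NS (SE 0.06, adjusted p = 0.00688). Against SA:ANH-vehicle its difference of -0.13 was not called (SE 0.06, adjusted p = 0.335). Dhcr7, which encodes the reductase that turns 7-dehydrocholesterol into cholesterol, was at 38.3, 33.9 and 32.65 CPM across NS, 30.1, 28.05 and 29.5 CPM across SA:ANH-vehicle and 24.3, 28.4 and 26.1 CPM in SA:ANH-KDM5Ci. It fell by 0.41 against NS (SE 0.07, adjusted p = 0.00696), and only SA:ANH-KDM5Ci replicate 2 overlapped the SA:ANH-vehicle range. Ebp, the sterol isomerase gene, ranged from 13.2 to 16.1 CPM over all libraries, with a log2 difference of 0.02 in SA:ANH-KDM5Ci against NS (SE 0.08, adjusted p = 0.939).

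**Figure D3:**
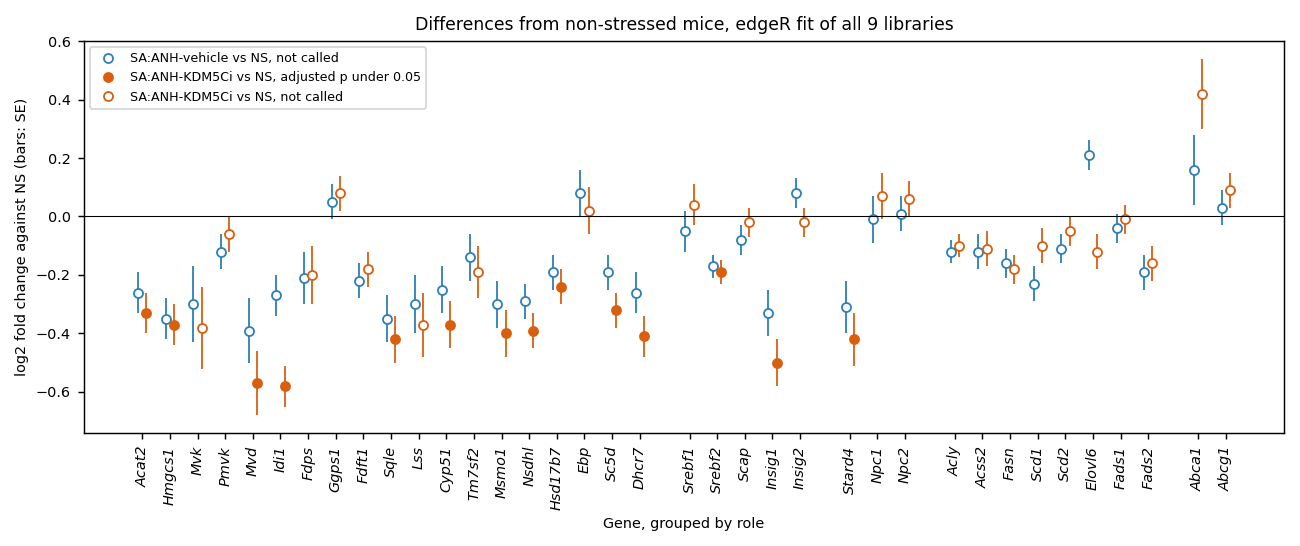
Log2 fold change of each gene against NS, for SA:ANH-vehicle and SA:ANH-KDM5Ci, with bars of the SE, filled points for called genes and genes grouped by role. Sterol genes reach -0.58 (Idi1), the fatty acid genes stay between -0.23 and 0.21, and Abca1 stands highest at 0.42 in SA:ANH-KDM5Ci; both series share the NS libraries.

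Among the regulators, Srebf2 and Insig1 fell and Srebf1, Scap and Insig2 were not called. Srebf2 (chr15:82147269-82205379) was at 274, 264 and 264 CPM across NS, 235, 243 and 238 CPM across SA:ANH-vehicle and 229, 239 and 235 CPM in SA:ANH-KDM5Ci. The change was small but tight, with stressed libraries at 229 to 243 CPM and NS at 264 CPM or more. It fell by 12.4% in SA:ANH-KDM5Ci against NS (log2 -0.19, SE 0.04, adjusted p = 0.0236) and differed by -0.17 in SA:ANH-vehicle (SE 0.04, adjusted p = 0.278). Srebf1 was at 49.9 to 56.3 CPM across NS and 48.1 to 59.2 CPM in the stressed libraries, and its difference in SA:ANH-KDM5Ci was 0.04 (SE 0.07, adjusted p = 0.818). The counts do not separate the 2 transcript forms of Srebf1.

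Insig1 (chr5:28071412-28078662) is both a brake on SREBP release and a known SREBP target. Levels were 118, 107 and 98.6 CPM across NS, 89.0, 82.0 and 85.9 CPM across SA:ANH-vehicle and 69.0, 83.9 and 76.1 CPM in SA:ANH-KDM5Ci. All stressed libraries were below NS, and 1 SA:ANH-KDM5Ci library lay within the SA:ANH-vehicle range. Insig1 fell by 29.2% in SA:ANH-KDM5Ci against NS (log2 -0.50, SE 0.08, adjusted p = 0.0026), and the difference of SA:ANH-vehicle was -0.33 (SE 0.08, adjusted p = 0.186). Between the stressed groups it was -0.17 (SE 0.08, adjusted p = 0.348).

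Insig2, its paralog, which is not a classical SREBP target, had another pattern. It was at 48.8, 48.55 and 49.4 CPM across NS, 52.75, 51.6 and 50.4 CPM across SA:ANH-vehicle and 46.9, 46.4 and 50.9 CPM in SA:ANH-KDM5Ci. SA:ANH-vehicle was highest without overlap with NS, but no difference was called, at 0.08 against NS (adjusted p = 0.765) and -0.10 for SA:ANH-KDM5Ci against SA:ANH-vehicle (adjusted p = 0.412). Scap, the escort, ranged from 95.8 to 106 CPM over all libraries.

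Of the genes for transport within the cell, Stard4, a sterol carrier of the cytosol and a known SREBP-2 target, was at 33.0, 34.5 and 36.7 CPM across NS, 28.75, 27.5 and 27.7 CPM across SA:ANH-vehicle and 23.2, 30.6 and 24.3 CPM in SA:ANH-KDM5Ci. No stressed library reached NS, and SA:ANH-KDM5Ci varied more than SA:ANH-vehicle. Stard4 fell by 25.0% in SA:ANH-KDM5Ci against NS (log2 -0.42, SE 0.09, adjusted p = 0.018), with -0.31 in SA:ANH-vehicle (SE 0.09, adjusted p = 0.322). Npc1 and Npc2, which release cholesterol from lysosomes, overlapped between all groups, with differences of 0.07 and 0.06 in SA:ANH-KDM5Ci against NS (adjusted p = 0.711 and 0.616).

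The fatty acid branch showed smaller differences than the sterol branch. Against NS, 0 of its 8 genes were called by edgeR in either stressed group, and the median log2 difference was -0.12 in SA:ANH-vehicle and -0.11 in SA:ANH-KDM5Ci. The difference between the branches was not tested, because their members were chosen with results known. Fasn, the gene of fatty acid synthase, came nearest, at 408 to 418 CPM in NS against 353 to 388 CPM in the stressed libraries. Its groups did not overlap, and its difference of -0.18 in SA:ANH-KDM5Ci just missed the threshold (SE 0.05, adjusted p = 0.0576), while DESeq2 called it. Acly, which makes cytosolic acetyl-CoA from citrate, was at 216 to 220 CPM across NS and 195 to 212 CPM in the stressed libraries, with a difference of -0.10 in SA:ANH-KDM5Ci (adjusted p = 0.269). Fads2, the gene of the delta-6 desaturase, was at 73.1 to 76.5 CPM across NS and 62.1 to 71.7 CPM in the stressed libraries, with -0.16 (adjusted p = 0.154).

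The stearoyl-CoA desaturase gene Scd1 was at 222, 208 and 194 CPM across NS, 194, 172 and 168 CPM across SA:ANH-vehicle and 194, 195 and 193 CPM in SA:ANH-KDM5Ci. The lowest NS library, at 194.4 CPM, was just above the highest SA:ANH-vehicle library, at 194.3 CPM, and SA:ANH-KDM5Ci lay between their means. No comparison was called, at -0.23 for SA:ANH-vehicle against NS (SE 0.06, adjusted p = 0.308) and 0.12 for SA:ANH-KDM5Ci against SA:ANH-vehicle (SE 0.06, adjusted p = 0.402). Its abundant paralog Scd2 ranged from 1208 to 1439 CPM with overlap between all groups, as did Acss2, an acetyl-CoA synthetase gene, at 44.2 to 52.1 CPM, and Fads1, at 233 to 256 CPM. The paralogs are similar in sequence, so reads could be split between Scd1 and Scd2 in counting.

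Elovl6 (chr3:129532386-129638495) differed from the rest of its branch in where it was highest. It encodes the elongase that extends palmitate to stearate. The promoter window shown for it holds no CCAAT box, a motif found in 2 of 5 fatty acid genes and 40.3% of tested genes with a promoter. Levels were 58.4, 61.8 and 64.1 CPM across NS, 73.1, 69.9 and 69.7 CPM across SA:ANH-vehicle and 59.1, 56.9 and 53.05 CPM in SA:ANH-KDM5Ci. SA:ANH-vehicle was highest without overlap with either other group. Elovl6 fell by 20.6% in SA:ANH-KDM5Ci against SA:ANH-vehicle (log2 -0.33, SE 0.06, adjusted p = 0.0055), a call kept in all 18 alternative settings, where adjusted p ran from 2.51e-05 to 0.0267. The difference of SA:ANH-vehicle from NS, 0.21, was not called (SE 0.05, adjusted p = 0.297), and neither was that of SA:ANH-KDM5Ci, -0.12 (SE 0.06, adjusted p = 0.249).

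**Figure D4:**
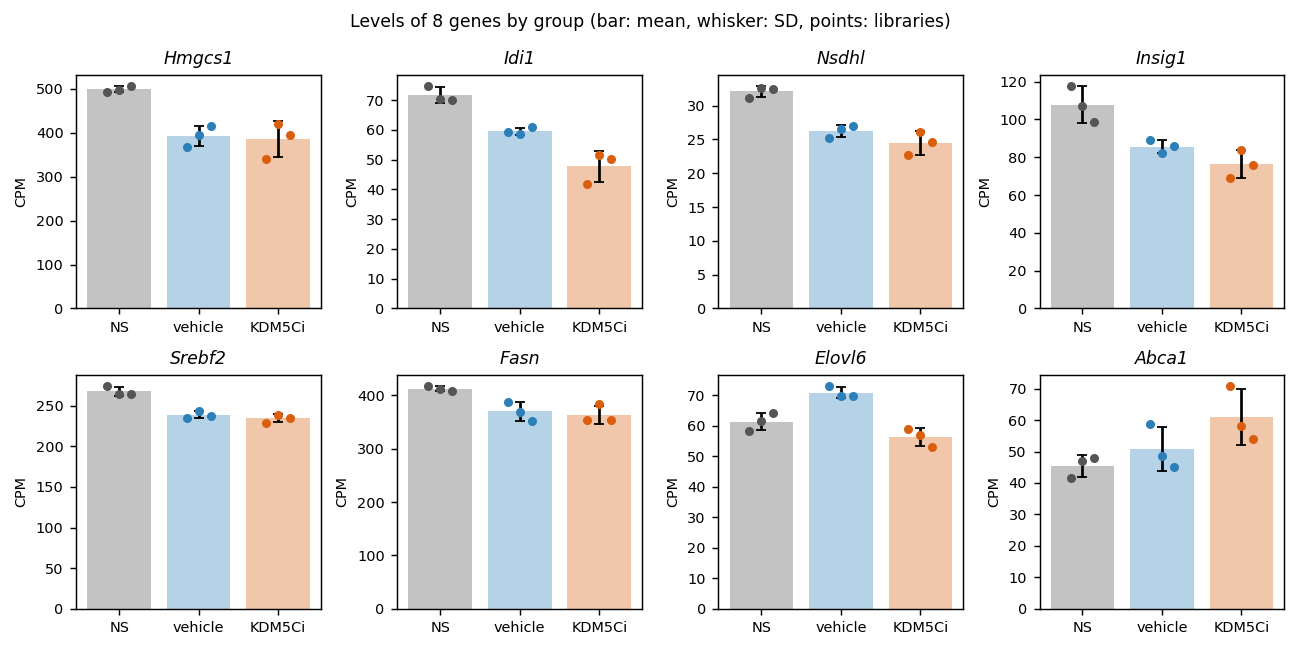
Levels in CPM of 8 members in each library, in which points are libraries, bars the means and whiskers the SD (n = 3). Idi1 steps down over NS, SA:ANH-vehicle and SA:ANH-KDM5Ci, Elovl6 is highest in SA:ANH-vehicle at 69.7 to 73.1 CPM, and Abca1 reaches 70.8 CPM in SA:ANH-KDM5Ci replicate 1.

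Elovl6 and Idi1 were the members called between the stressed groups, both lower with the inhibitor. edgeR thus called 2 of 37 lower and 0 higher, where 1.62% of all genes were lower and 0.891% higher. Unadjusted p was below 0.05 for 5 of the 37 and for 2150 of the 15144 genes tested. DESeq2 and limma-voom also called 2 members, and called 482 and 346 of all genes. The groups did not overlap for 3 members that were lower (Idi1, Elovl6 and Sc5d) and 0 that were higher, against 10.9% and 7.92% of all genes, so the share of separated members was below the background. In the sterol branch, 15 of 19 differences were negative with a median of -0.07, against a median of 0.00 over all genes tested. Without SA:ANH-KDM5Ci replicate 1 the branch median was -0.02.

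Of the export genes, Abca1 was at its highest mean in SA:ANH-KDM5Ci and Abcg1 was nearly level, and edgeR called 0 of the 2 in any comparison. Abca1 (chr4:53030789-53159988), which loads cholesterol onto lipoproteins, was at 41.4, 47.0 and 48.0 CPM across NS, 58.6, 48.7 and 44.95 CPM across SA:ANH-vehicle and 70.8, 58.1 and 53.95 CPM in SA:ANH-KDM5Ci. All SA:ANH-KDM5Ci libraries exceeded NS, and SA:ANH-vehicle overlapped both. The log2 difference of SA:ANH-KDM5Ci from NS was 0.42 (SE 0.12, adjusted p = 0.0813) and from SA:ANH-vehicle 0.26 (SE 0.12, adjusted p = 0.348), and the second was 0.14 without SA:ANH-KDM5Ci replicate 1. Abcg1 ranged from 77.9 to 89.2 CPM and differed from NS by 0.09 in SA:ANH-KDM5Ci (adjusted p = 0.452).

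A pair of libraries held most of the extreme values. Of the 14 genes called against NS, 11 were highest in NS replicate 1 and 12 were lowest in SA:ANH-KDM5Ci replicate 1. Without NS replicate 1 the sterol median was -0.185, against -0.259 with it, for SA:ANH-vehicle against NS. For SA:ANH-KDM5Ci against NS it was -0.286 without and -0.365 with that library. Leaving out SA:ANH-KDM5Ci replicate 1 instead gave -0.294. As a description, deviations from the group means over the 9 libraries correlated between sterol genes with a median r of 0.51 over 171 pairs, of which 131 were positive. The median was 0.12 over 28 pairs of fatty acid genes, -0.06 over 152 pairs of a sterol with a fatty acid gene and -0.46 over 38 pairs of a sterol with an export gene. These pairs share libraries and genes, and such correlations were not computed for pairs of other genes.

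Other genes of these pathways were read from wider lists. Of 20 tested genes of sterol and isoprenoid handling, 3 fell in SA:ANH-KDM5Ci against NS and none rose, where 2.11% of all genes were called lower and 1.86% higher. DESeq2 called 3 of the list and limma-voom 2, where they called 831 and 560 of all genes. Tmem97, which encodes a sterol-regulated membrane protein, fell by 0.34 (SE 0.07, adjusted p = 0.0169). Erlin1, whose product takes part in sterol-dependent protein degradation, fell by 0.33 (SE 0.07, adjusted p = 0.0255). Aacs, an enzyme gene that feeds ketone bodies into lipid synthesis, fell by 0.26 (SE 0.07, adjusted p = 0.0417). The list's median was -0.01, and edgeR, DESeq2 and limma-voom called 0 of its genes in the other 2 comparisons. Unadjusted p was below 0.05 for 4 of them in SA:ANH-KDM5Ci against SA:ANH-vehicle and for 1 in SA:ANH-vehicle against NS. Over all 15144 genes tested these counts were 2150 and 1244.

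Among 20 further genes of fatty acid and triglyceride synthesis, edgeR and limma-voom called 0 in any comparison. Unadjusted p was below 0.05 for 5, 2 and 5 of them in SA:ANH-KDM5Ci against SA:ANH-vehicle, SA:ANH-vehicle against NS and SA:ANH-KDM5Ci against NS. Over all 15144 genes tested these counts were 2150, 1244 and 2796. DESeq2 called 1 of the 20 in the last comparison, and 831 of all genes. The acetyl-CoA carboxylase gene Acaca differed by -0.15 in SA:ANH-KDM5Ci against NS (SE 0.07, adjusted p = 0.261). Of 9 genes of the LXR pathway, edgeR, DESeq2 and limma-voom called 0 in any comparison, with 2, 1 and 3 at unadjusted p below 0.05 in the same order.

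Among 13 genes of fatty acid oxidation and PPAR targets, 1 rose in SA:ANH-KDM5Ci. Of all genes tested, 1.86% were called higher against NS and 0.891% against SA:ANH-vehicle. Ucp2, a mitochondrial carrier gene, rose by 0.39 against NS (SE 0.06, adjusted p = 0.0032) and by 0.45 against SA:ANH-vehicle (SE 0.06, adjusted p = 0.00165).

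Markers of cells that make or hold much sterol were set beside these results, with tissue makeup as read from summed CPM. Of 12 oligodendrocyte and myelin markers edgeR, DESeq2 and limma-voom called 0 in any comparison. Unadjusted p was below 0.05 for 1 marker in SA:ANH-KDM5Ci against NS, where it was so for 2796 of the 15144 genes tested. In the other comparisons 0 markers had such a p. The sums of these markers were 1609.1 to 3264.4 CPM across NS, 2099.3 to 3296.9 CPM across SA:ANH-vehicle and 2945.4 to 3850.5 CPM in SA:ANH-KDM5Ci, with a median difference of 0.56 between the last and NS.

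For the calls that follow, 2.11% of all genes tested were called lower and 1.86% higher in SA:ANH-KDM5Ci against NS. Against SA:ANH-vehicle these shares were 1.62% and 0.891%. In SA:ANH-vehicle against NS they were 0% and 0.0132%. In the order of these comparisons, unadjusted p in edgeR was below 0.05 for 2796, 2150 and 1244 of the 15144 genes tested. DESeq2 called 831, 482 and 81 of all genes. Astrocyte markers summed to 5025.6 to 5614.4 CPM across NS, 4775.9 to 5390.7 CPM across SA:ANH-vehicle and 4850.9 to 5492.3 CPM in SA:ANH-KDM5Ci, and 1 of 10, Sox9, fell in SA:ANH-KDM5Ci against both other groups. Of 8 oligodendrocyte precursor markers, 2 rose in SA:ANH-KDM5Ci against SA:ANH-vehicle (Olig1 and Olig2) and 1 against NS (Olig2). Sox10 and Gpr17 were lower in SA:ANH-KDM5Ci than in SA:ANH-vehicle, at -0.49 and -0.17. They and the remaining precursor markers, which were higher, were not called. Meningeal markers summed to 82.4 to 90.1 CPM in SA:ANH-KDM5Ci, 118 to 185 CPM across SA:ANH-vehicle and 100 to 161 CPM in NS, and 1 of 8 fell against NS and 2 against SA:ANH-vehicle. Their median differences in SA:ANH-KDM5Ci were -0.65 against NS and -0.7 against SA:ANH-vehicle. In these comparisons 6 and 8 of the 8 had unadjusted p below 0.05 in edgeR, and DESeq2 called 3 in each. Of 6 endothelial markers, 3 fell in SA:ANH-KDM5Ci against NS (Cldn5, Slco1a4 and Itm2a) and 2 against SA:ANH-vehicle (Cldn5 and Slco1a4). The other endothelial markers were not called and differed from NS by 0.01 (Pecam1), -0.03 (Flt1) and 0.37 (Ly6c1) in SA:ANH-KDM5Ci. Blood markers summed to 235.2 to 272 CPM across NS, 406.5 to 466.3 CPM across SA:ANH-vehicle and 372.3 to 495.5 CPM in SA:ANH-KDM5Ci. Against NS, 4 of 4 rose in SA:ANH-KDM5Ci and 1 of 4 in SA:ANH-vehicle, at median differences of 0.69 and 0.76. All 4 had unadjusted p below 0.05 in both comparisons, and DESeq2 called 4 in each. Between the stressed groups their median difference was -0.05 and edgeR called 0. Sums of 8 microglia markers were 382.5 to 392.5 CPM across NS and 388.4 to 473.5 CPM in the stressed libraries. edgeR and limma-voom called 0 of them in any comparison, while in SA:ANH-KDM5Ci against NS their median difference was 0.15, 5 had unadjusted p below 0.05 and DESeq2 called 3. All listed markers of neurons, astrocytes, oligodendrocytes and microglia passed the filter, and the part of cell makeup in the sterol differences was not tested.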

How the data were processed

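RNA of frozen medial prefrontal cortex was sequenced from 9 samples, grouped by their titles into 3 groups of 3; libraries were made from 1 ug of total RNA with a strand-specific kit, per the labels' protocols. Trimmomatic 0.32, TopHat2 2.0.13, Bowtie2 2.2.3 and mm10 are named in the submitters' processing notes. The deposited values are the authors' expected counts per gene (15.7% of those above 0 were whole within 1e-06). The counting tool and its use of strand are not given in the sources used here. Reads of a gene and of an antisense partner cannot be told apart. 0 columns belonged to no sample of the series.

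Expected counts were rounded. edgeR 4.0.16 (R 4.3.3) filtered genes with filterByExpr, scaled libraries by TMM and fitted 1 mean per group over the 9 libraries (robust glmQLFit). P-values were adjusted over 15144 genes at 0.05. An SE is the log2 fold change divided by the square root of F. The fit's code was tested on simulated data. Symbols and positions came from RefSeq (GRCm38.p6; 32891 IDs matched), and exon lengths from GENCODE basic annotation of GRCm38. Alternatives were limma-voom (limma 3.58.1), DESeq2 1.42.0, size factors from DESeq2, no TMM, other filters, only 2 groups, no robust moderation, a threshold of 0.01, a replicate block and each library left out.

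The 37 members and all lists were chosen with earlier results of these data known. Members called in any comparison, and the 8 of lowest p in each, are given per library; other genes are named only from the lists, and 1 gene of the fatty acid oxidation list is not reported here. Counting precision follows from 29845097 to 42196472 counts per library.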

Additional observations from a re-analysis of the deposited data

How the results depend on the processing

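All members passed the filter on low counts, and each group has 3 libraries. No direction of a call was reversed. For SA:ANH-KDM5Ci against NS, 14 members were called, 7 at a threshold of 0.01 and 7 to 16 with single libraries left out. Hmgcs1, Idi1, Sqle, Nsdhl, Sc5d, Dhcr7 and Insig1 were called in all 18 alternatives tried at 0.05, while Srebf2 was called in 13 and Hsd17b7 in 9. For SA:ANH-vehicle against NS, the 0 calls became 5 with DESeq2, 1 with only the 2 groups compared and 0 to 1 with a library left out. For SA:ANH-KDM5Ci against SA:ANH-vehicle, 2 became 1 with only the 2 groups, 1 at 0.01 and 1 to 2 with a library left out. Over all genes, SA:ANH-KDM5Ci against SA:ANH-vehicle went from 380 to 171 at 0.01 and to 203 to 429 with a library left out. SA:ANH-vehicle against NS went from 2 to 81 (DESeq2), 11 (no TMM), 11 (no filter), 17 (only the 2 groups) and 2 to 17 (a library left out). SA:ANH-KDM5Ci against NS went from 601 to 227 at 0.01 and to 269 to 747. Left-out libraries leave fewer samples and 0.01 is a stricter threshold by construction; for the other settings the cause was not tested. The median of all genes lay between -0.02 and 0.014 under every scaling tried.

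Same-numbered samples correlated above 0.1 in 3 of 9 pairs, short of every pair, so the numbers were not taken to pair them. Between SA:ANH-vehicle and SA:ANH-KDM5Ci all 3 were positive (0.238, 0.0839 and 0.184), and the best partner shared the number in 8 of 18 cases, a hint from the data and not the design. With the replicate number as a block, 2, 0 and 14 members were called in SA:ANH-KDM5Ci against SA:ANH-vehicle, SA:ANH-vehicle against NS and SA:ANH-KDM5Ci against NS, and 363, 2 and 708 of all genes. In the last, Hsd17b7 lost its call and Lss gained one.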
